A study of Homo sapiens with 12 samples.

Results

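Metallothioneins are small intracellular proteins, rich in cysteine, that bind zinc and copper and, in exposed kidneys, cadmium. Cells raise their transcription when free zinc rises: the zinc-finger factor MTF-1 then binds short metal response elements in their promoters, and in many cell types glucocorticoids and oxidative stress act on the same genes. The proximal tubule is the kidney segment best known for storing metals on these proteins. The members followed here were the 7 genes of the deposited tables with the symbols MT1E, MT1F, MT1G, MT1H, MT1M, MT1X and MT2A, out of 58278 listed genes, and all 7 passed the filter on low counts that left 24342 genes for testing.

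RNA came from HK2, an immortalised human proximal tubular cell line, in 12 libraries with 2 biological replicates in each of 6 groups. Ctrl cells were untreated. TN cells received 5 ng/mL TNF-α, an inflammatory cytokine, for 3 h. The short-chain fatty acids (SCFAs) propionate (15 mM) or butyrate (3 mM) were given for 24 h before TNF-α in PRTN and BUTN, and for 24 h after TNF-α in TNPR and TNBU. All groups grew in medium with insulin, transferrin, selenite and hydrocortisone, which is a glucocorticoid. One general treatment note in the labels names other agents (thapsigargin and JQ1). The label of each library and the study's methods give the groups as above. No group with an SCFA and no TNF-α, and no group kept for 24 h after TNF-α without an SCFA, was analysed here. A change against TN can therefore not be told apart from an effect of the SCFA alone or, in TNPR and TNBU, of the longer time. The doses of propionate and butyrate differed, so their values are given side by side and were not tested against each other.

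Library totals ran from 27269986 to 33851130 expected counts, and a count of 3 in a library stood for 0.0867 to 0.112 CPM, which covers counting error only. CPM is the count scaled to library size with TMM factors, and n is 2 libraries a group throughout. A gene was called where the limma-voom fold change exceeded 1.5 and the p adjusted over all 24342 genes was under 0.05. The replicates of TNPR and TNBU differed more across genes (median absolute log2 difference 0.202 and 0.232) than those of the other groups (0.116 to 0.153). Of 15 epithelial and proximal tubule markers, 12 to 15 were detected in both libraries of each group, while LRP2, which encodes megalin, was at 0 in Ctrl and TN. The summed level of 4 endothelial markers was 0.143 to 0.287 CPM in Ctrl and TN and 2.21 to 3.64 CPM in the SCFA groups. That of 6 fibroblast markers was 52.6 to 59.6 and 204 to 255 CPM. That of 7 leukocyte markers was 30.9 to 36.3 and 28 to 53 CPM. The endothelial and fibroblast sums moved with the SCFA groups as several metallothioneins did, and their part in the results was not tested. In bulk RNA, fewer cells with a transcript and less of it per cell cannot be told apart.

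All 7 members lie on chromosome 16 of GRCh38, within 75.6 kb (56608584 to 56684196), and the annotated metallothionein genes there span 119.1 kb. MT2A (ENSG00000125148, 56608584 to 56609497) comes first. MT1E (ENSG00000169715, 56625475 to 56627112), MT1M (ENSG00000205364, 56632659 to 56633981) and MT1F (ENSG00000198417, 56657731 to 56660698) follow. MT1G (ENSG00000125144, 56666730 to 56668065) is the only member on the minus strand, and MT1H (ENSG00000205358, 56669814 to 56671129) and MT1X (ENSG00000187193, 56682470 to 56684196) close the series. All are protein-coding genes, with 3 exons in the main transcript except for MT1E, which has 2. The coding sequence used for each member was the richest in cysteine among those with at least 20 cysteine codons. So chosen, it has 61 codons in each member, of which 20 encode cysteine. Any pair of members shares between 88.5% (MT1F and MT1X) and 95.1% (MT1G and MT2A) of the 183 coding bases.

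MT1X and MT1M are shown because they are the members called in opposite directions against TN in every SCFA group. Their coding sequences, read from the GENCODE transcripts and without the stop codon, differ at 18 of 183 bases, which are in capitals.
MT1X: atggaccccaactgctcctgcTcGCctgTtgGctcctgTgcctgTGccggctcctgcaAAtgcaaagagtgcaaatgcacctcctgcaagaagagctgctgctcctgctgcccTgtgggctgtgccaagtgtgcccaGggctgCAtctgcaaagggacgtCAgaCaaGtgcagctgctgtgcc
MT1M: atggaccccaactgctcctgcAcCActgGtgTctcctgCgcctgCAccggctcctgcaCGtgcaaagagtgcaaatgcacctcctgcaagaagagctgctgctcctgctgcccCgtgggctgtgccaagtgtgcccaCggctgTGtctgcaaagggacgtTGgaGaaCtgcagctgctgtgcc

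Near-identical members can share reads, and RSEM divides such reads between genes. Of the 50-base windows of the main transcript, 6.1% in MT1F, 10.3% in MT1E, 11.1% in MT2A, 14.6% in MT1M, 19.9% in MT1G, 20.4% in MT1H and 51.0% in MT1X also occurred in another gene. At 75 bases the share was 0.0% for MT1F, MT1M and MT2A, 1.6% for MT1E, 6.5% for MT1G, 10.8% for MT1H and 36.1% for MT1X. Most of the shared windows of MT1X (117 of 181 at 50 bases) belonged to a non-coding gene that overlaps it (ENSG00000259827), which had counts in 1 library only, at most 1.87. The read length and the strand setting of the counting are not given in the sources used here. Expected counts that were not whole numbers, which arise where reads are divided, were found in 11 or 12 libraries for every member except MT1H (6 libraries).

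The promoters were read for metal response elements. Of the members, 3 have an entry in the RefSeq promoter table (GRCh38.p14), and the 250 bases upstream of each start are printed with the cores of metal response elements in capitals (TGCACNC or TGCGCNC, on either strand). MT2A is shown as the most abundant member, MT1X as a member called higher with both SCFAs, and MT1H as the member with almost no counts. They cover chr16:56608334-56608583, chr16:56682220-56682469 and chr16:56669564-56669813, all on the plus strand.
MT2A: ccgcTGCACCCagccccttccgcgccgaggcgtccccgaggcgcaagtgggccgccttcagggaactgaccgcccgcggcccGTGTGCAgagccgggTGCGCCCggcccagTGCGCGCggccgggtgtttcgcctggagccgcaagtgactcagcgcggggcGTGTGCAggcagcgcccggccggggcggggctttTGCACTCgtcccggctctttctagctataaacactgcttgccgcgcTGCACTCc
MT1X: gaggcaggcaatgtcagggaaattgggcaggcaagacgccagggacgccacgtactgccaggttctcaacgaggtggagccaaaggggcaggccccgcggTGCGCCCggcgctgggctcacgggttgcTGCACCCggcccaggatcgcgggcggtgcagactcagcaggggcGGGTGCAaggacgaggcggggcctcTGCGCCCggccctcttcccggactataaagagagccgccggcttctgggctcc
MT1H: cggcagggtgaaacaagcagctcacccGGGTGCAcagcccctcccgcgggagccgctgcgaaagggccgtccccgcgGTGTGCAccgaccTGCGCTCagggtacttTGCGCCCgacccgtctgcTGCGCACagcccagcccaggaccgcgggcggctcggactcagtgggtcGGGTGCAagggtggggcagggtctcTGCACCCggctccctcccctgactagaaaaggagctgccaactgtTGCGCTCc

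MT2A holds 7 cores in these 250 bases, MT1X holds 4 and MT1H holds 8. Over the whole table entries, which run on past the start, the numbers were 8, 4 and 8. Of the 35116 promoters in the table, 29.6% held at least 1 core and 0.6% held at least 4. The cores did not overlap each other, and 1 GC box (GGGCGG, either strand) of MT1X overlapped a core. GC boxes, found in 45.0% of all promoters, occurred 2 times in MT2A, 2 times in MT1X and 1 time in MT1H. A TATAAA box began at base -29 of MT2A and base -30 of MT1X and was not found in MT1H (11.5% of all promoters). The antioxidant response core TGACNNNGC occurred 1 time each in MT2A and MT1X (13.3% of all promoters), and TGTTCT, part of the glucocorticoid receptor motif, in none of the 3 (14.8%). These are matches of letters, and binding was not measured.

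Levels spanned 4 orders of magnitude within the family. Divided by the length of the main transcript, the mean over the 12 libraries was 1378 CPM per kb for MT2A, 208 for MT1X, 145 for MT1E, 126 for MT1F, 14.8 for MT1G, 14.3 for MT1M and 0.137 for MT1H. The order among the middle members depended on treatment. In Ctrl and TN, MT1E (116 ± 1.77 and 132 ± 4.07 CPM per kb, SD) stood above MT1X (102 ± 1.12 and 112 ± 1.54), and MT1M (24.4 ± 1.34 and 26.5 ± 1.68) above MT1G (5.98 ± 0.00262 and 5.79 ± 0.162). In all 4 SCFA groups both orders were turned, with MT1X at 231 to 279 and MT1E at 129 to 179 CPM per kb. In BUTN and TNBU, MT1G (13.1 ± 0.593 and 27.6 ± 11.8) stood above MT1M (9.40 ± 0.234 and 10.5 ± 2.21), though the SDs of TNBU were wide. These orders depend on the lengths used. With merged exons in place of the main transcript, MT1E stood above MT1X in all 6 groups, at 91.8 to 127 against 54.0 to 65.2 CPM per kb in the SCFA groups, while MT1G still stood below MT1M in Ctrl and TN and above it in PRTN, TNPR and TNBU (in BUTN 7.14 for MT1G and 7.32 for MT1M).

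**Figure D1:**
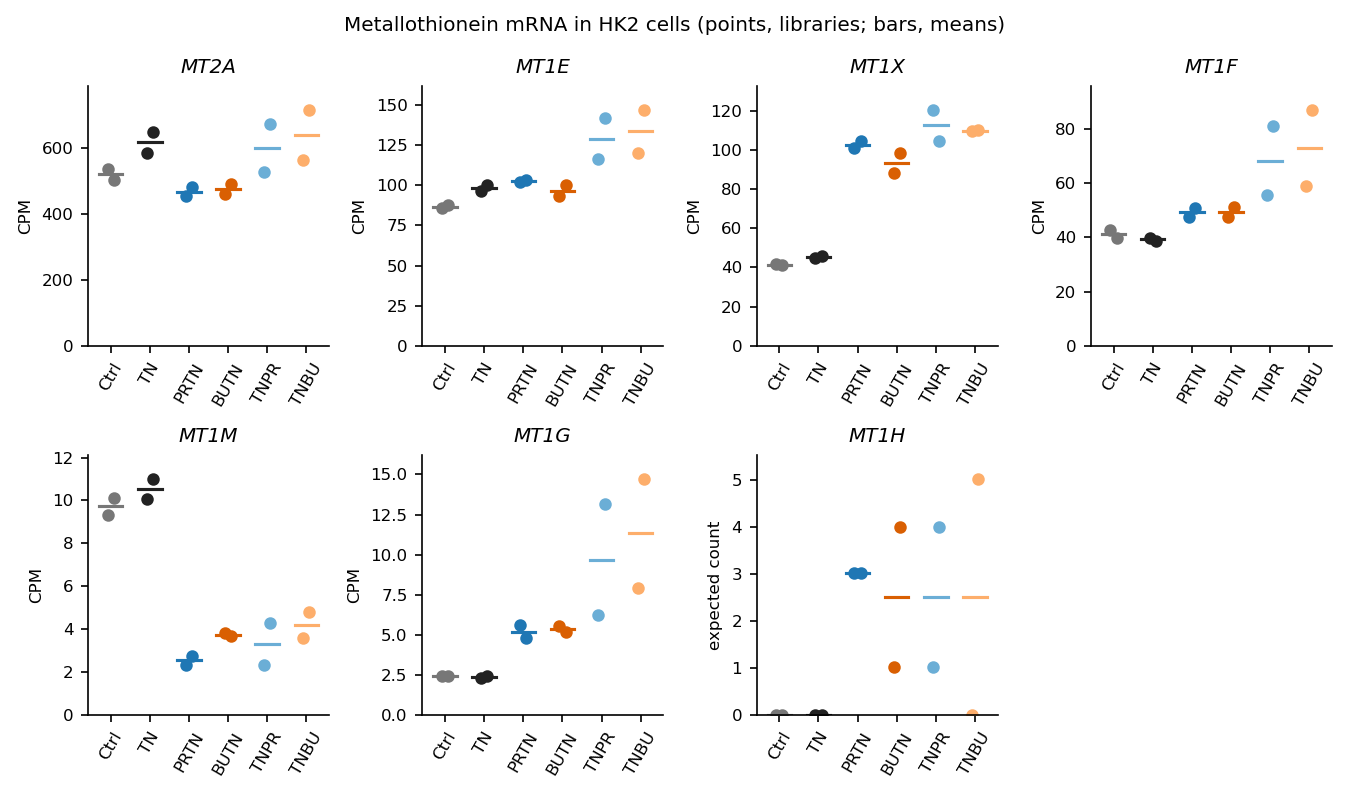
Expression of the 7 metallothioneins in each of the 12 libraries, in CPM except for MT1H, which is in expected counts. Points are libraries and bars are group means, and each panel has its own linear axis from 0. MT1X stands at 41.0 to 45.6 CPM in Ctrl and TN and at 88.2 to 120 CPM in the SCFA groups, while MT1M goes from 9.34 to 11 CPM down to 2.30 to 4.82 CPM.

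TNF-α alone left the family close to control. MT2A, the most abundant member, was at 535 and 503 CPM in Ctrl and at 584 and 648 CPM in TN. Both TN libraries were above both Ctrl libraries, but the log2 fold change of 0.25 (SE 0.12) had an adjusted p of 0.320 in limma. MT1E went from 85.7 and 87.5 to 96.1 and 100.4 CPM (log2 0.18, SE 0.11) and MT1X from 41.7 and 41.0 to 44.7 and 45.6 CPM (log2 0.13, SE 0.09). MT1F, MT1G and MT1M differed by -0.07, -0.05 and 0.12 on the log2 scale. None of the 7 members was called in TN vs Ctrl and none had an unadjusted p under 0.05, where 0.764% of all genes were called higher and 0.534% lower. Without overlap between libraries, 3 members were above Ctrl and 1 below, as were 23.1% and 23.8% of all genes. The quasi-likelihood test of edgeR and DESeq2 called none either. The median over the members was 0.12 on the log2 scale, against -0.01 over all genes tested.

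MT1X was called higher and MT1M lower than TN in every SCFA group. In all, the fit called 1 member higher and 1 lower with either SCFA given first (PRTN, BUTN), and 3 higher and 1 lower with either given later (TNPR, TNBU). The SCFAs changed a large part of the transcriptome. For PRTN, BUTN, TNPR and TNBU in turn, 23.9%, 23.1%, 24.9% and 25.0% of all genes were called higher and 16.7%, 14.8%, 16.9% and 16.5% lower. One member of 7 in either direction with the SCFA first is close to those shares. That count of 1 higher became 2 or 3 for PRTN and 2 for BUTN when any library of TNPR or TNBU was left out, through MT1G and, without a library of TNBU, also MT1H in PRTN. The members' median log2 fold change was 0.33, 0.33, 0.77 and 0.87, against 0.09, 0.08, 0.12 and 0.09 over all genes. These medians are the values of MT1F and count MT1H above them. Without MT1H they would fall between MT1F and MT1E, which was at 0.06, -0.03, 0.38 and 0.44. Without overlap between libraries, 5, 4, 5 and 4 members were above TN, beside 42.2%, 41.7%, 42.2% and 40.6% of all genes, and 2, 2, 1 and 1 were below, beside 36.0%, 35.6%, 34.3% and 35.1%. MT1H, at 0 counts in TN, passed the filter only through the SCFA libraries and could not be below TN. It is among those above in PRTN, BUTN and TNPR. All 4 comparisons share the TN libraries.

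**Figure D2:**
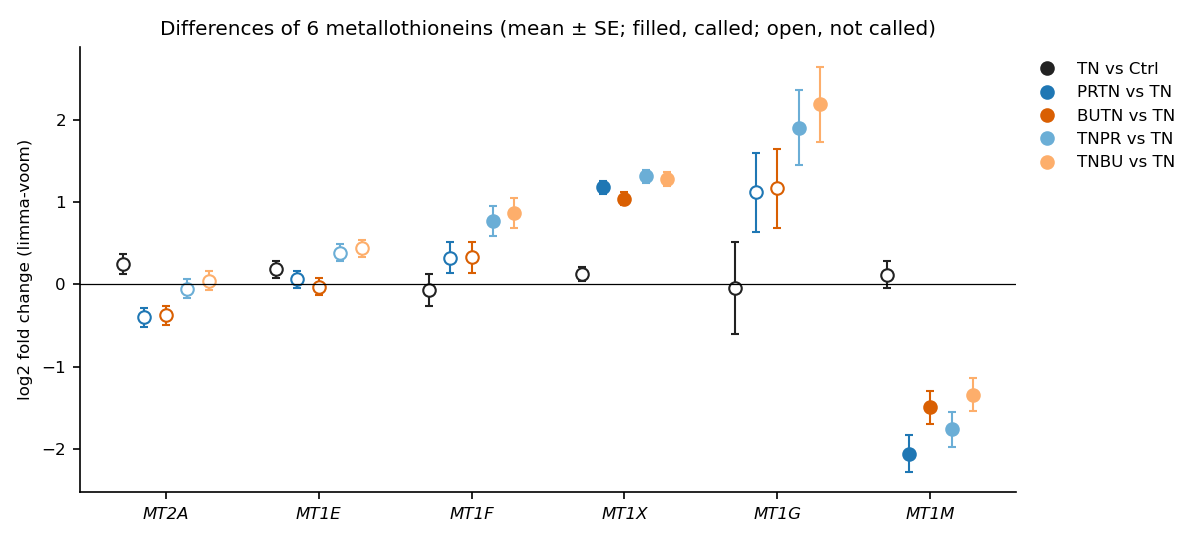
Log2 fold changes from limma-voom with their SE for 6 metallothioneins in TN vs Ctrl and in the SCFA groups vs TN. Filled points passed both thresholds and open points did not. MT1X is filled above 0 and MT1M filled below 0 in all 4 SCFA groups, MT1F and MT1G are filled only in TNPR and TNBU, and MT2A and MT1E are open throughout.

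MT1X, a type 1 isoform, was the only member called higher than TN in every SCFA group. TN cells held 44.7 and 45.6 CPM. PRTN cells held 100.7 and 104.6 CPM, BUTN cells 88.2 and 98.2, TNPR cells 120 and 105, and TNBU cells 109.5 and 110.1. Every SCFA library was above every Ctrl and TN library. The fold change against TN was 2.27 in PRTN (log2 1.18, SE 0.08, adjusted p = 8.73e-08) and 2.06 in BUTN (log2 1.04, SE 0.08, adjusted p = 3.30e-07). It was 2.49 in TNPR (log2 1.31, SE 0.08, adjusted p = 3.29e-08) and 2.43 in TNBU (log2 1.28, SE 0.08, adjusted p = 5.05e-08). Against Ctrl, MT1X was called higher in all 4 groups as well, by 2.25-fold to 2.72-fold. MT1X also had the smallest SE of the family. Its promoter, shown above, has 4 metal response element cores.

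MT1M, another type 1 isoform, fell in every SCFA group. Ctrl libraries had 9.34 and 10.1 CPM and TN libraries 10.1 and 11. PRTN had 2.34 and 2.74 CPM, BUTN had 3.81 and 3.68, TNPR had 2.30 and 4.28, and TNBU had 3.57 and 4.82. The highest SCFA library was below the lowest library of Ctrl and TN. Levels were 4.15-fold lower than in TN in PRTN (log2 -2.05, SE 0.23, adjusted p = 6.52e-06) and 2.81-fold lower in BUTN (log2 -1.49, SE 0.20, adjusted p = 4.50e-05). They were 3.38-fold lower in TNPR (log2 -1.76, SE 0.21, adjusted p = 1.53e-05) and 2.53-fold lower in TNBU (log2 -1.34, SE 0.20, adjusted p = 1.06e-04). MT1M was also called lower in all 4 groups against Ctrl, 2.33-fold to 3.83-fold. The gene that shares most 50-base windows with MT1M is the pseudogene MT1JP, which held 3.39 to 32.3 expected counts in any library, while MT1M held 271 to 307 in Ctrl and TN and 77.8 to 145 in the SCFA groups.

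MT1G, a low-abundance isoform in these cells, was higher after SCFAs, with calls only where they followed TNF-α. Both Ctrl libraries had 2.45 CPM, and the TN libraries 2.33 and 2.42. With the SCFA first, levels were 5.59 and 4.80 CPM for propionate and 5.53 and 5.19 for butyrate. With the SCFA later, they were 6.23 and 13.1 CPM for propionate and 7.91 and 14.7 for butyrate. All 8 SCFA libraries were above all 4 others, and the second replicates of TNPR and TNBU were 2.11 and 1.86 times the first. The log2 fold change against TN was 1.91 in TNPR (SE 0.46, adjusted p = 3.08e-03) and 2.19 in TNBU (SE 0.45, adjusted p = 1.16e-03), or 3.75-fold and 4.56-fold. In PRTN (log2 1.12, SE 0.48) and BUTN (log2 1.17, SE 0.48) the adjusted p was 0.0641 and 0.0559 in limma. Without any single library of TNPR or TNBU, the groups whose replicates differed most, MT1G was called in both. The adjusted p was then 0.0178 to 0.0370 in PRTN and 0.0149 to 0.0297 in BUTN. The quasi-likelihood test of edgeR (adjusted p = 0.0175 and 0.0145) and DESeq2 (adjusted p = 0.00339 and 0.00219) also called it in both. Without any single library of Ctrl, TN, PRTN or BUTN, limma called it in neither. Across the alternatives its log2 fold change against TN was 1.01 to 1.28 in PRTN and 1.09 to 1.32 in BUTN.

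MT1F followed a similar course at a higher level. It was at 42.6 and 39.5 CPM in Ctrl and 39.7 and 38.7 CPM in TN. With the SCFA first, propionate gave 47.5 and 50.9 CPM and butyrate 47.4 and 51.3. With the SCFA later, propionate gave 55.4 and 81.0 CPM and butyrate 58.9 and 87.0. Every SCFA library was above every Ctrl and TN library. It was called higher than TN in TNPR, 1.70-fold (log2 0.77, SE 0.18, adjusted p = 2.94e-03), and in TNBU, 1.83-fold (log2 0.87, SE 0.18, adjusted p = 1.28e-03). In PRTN and BUTN the log2 fold change was 0.33 in each, with adjusted p of 0.155 and 0.152. The TNPR call rested on its second replicate: without it the log2 fold change was 0.50 (adjusted p = 0.0336), under the 1.5-fold limit. Against Ctrl, the fold was 1.63 in TNPR and 1.75 in TNBU, both called, and both calls were lost without the second replicate of the group (log2 0.43 and 0.52).

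MT1E changed little against TN. TN libraries had 96.1 and 100.4 CPM, PRTN libraries 102 and 103, BUTN libraries 93.1 and 100.1, TNPR libraries 116 and 142, and TNBU libraries 120 and 147. BUTN overlapped TN, and the libraries of TNPR and TNBU were above it. The log2 fold change of 0.38 in TNPR (SE 0.10, adjusted p = 6.16e-03) and 0.44 in TNBU (SE 0.10, adjusted p = 2.78e-03) passed the p threshold but was under 1.5-fold. Against Ctrl, where MT1E was at 85.7 and 87.5 CPM, TNBU was called higher at 1.54-fold (log2 0.62, SE 0.10, adjusted p = 2.28e-04), a call that was lost without its second replicate (log2 0.47). TNPR was at 1.48-fold against Ctrl and was called without its first replicate (log2 0.68).

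MT2A, which is widely expressed and responds to zinc and glucocorticoids, had the narrowest range of group means. PRTN libraries held 454 and 480 CPM and BUTN libraries 459 and 492, all below both TN libraries. TNPR libraries held 526 and 671 CPM and TNBU libraries 564 and 716, which overlapped TN. PRTN and BUTN were 1.32-fold and 1.30-fold lower than TN (log2 -0.40 and -0.37, SE 0.12 each, adjusted p = 0.0116 and 0.0169), under the 1.5-fold limit. In TNPR and TNBU the log2 fold change was -0.05 and 0.05 (SE 0.12 each, adjusted p = 0.730 and 0.759). Against Ctrl, none of the 4 SCFA groups was called, with log2 fold changes from -0.15 to 0.29. MT2A has 7 upstream metal response element cores and MT1X has 4, and their part in the levels of either gene was not tested.

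MT1H was near the limit of detection. All Ctrl and TN libraries had 0 counts. Both PRTN libraries had 3.02, the BUTN libraries 1.01 and 4, the TNPR libraries 1.01 and 4.01, and the TNBU libraries 0 and 5.04. With the floor set at 3 counts over the TN libraries together, the SCFA groups were at least 1.37-fold to 1.63-fold higher than TN. That bound rested on both libraries in PRTN alone. In TNBU, BUTN and TNPR a single library carried it, and the other library, with 0 to 1.01 counts, would give none. In the limma fit used throughout, MT1H was called in no contrast. It was called higher in PRTN vs TN under 6 alternatives (adjusted p = 0.0286 to 0.0469 in limma), and in TNPR and TNBU vs TN only without the first replicate of that group (adjusted p = 0.0487 and 0.0116 in limma). At these counts a fitted fold change depends on the added prior, so none is given. At 50 bases, 60 of its 71 shared windows matched MT1HL1, an intronless copy on chromosome 1 that was at 0 in every library.

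Against Ctrl, 1 member was called higher and 1 lower in PRTN (22.6% and 16.9% of all genes) and in BUTN (22.0% and 14.9%). In TNPR 3 were called higher and 1 lower (23.6% and 16.8% of all genes), and in TNBU 4 and 1 (23.6% and 16.5%). The members were those described above, MT1X and MT1M in all groups, MT1G and MT1F in TNPR and TNBU, and MT1E in TNBU. Without TNPR replicate 1, 5 were called higher in TNPR, MT1E and MT1H being added, and without TNBU replicate 2, 2 were called higher in TNBU.

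MT2A made up less of the pool of metallothionein transcripts in the SCFA groups than in Ctrl and TN, and MT1X more. The summed level of the 7 members was 700.2 ± 23.6 CPM (SD) for Ctrl and 812 ± 48.4 for TN. It was 729 ± 23.7 for PRTN, 723 ± 37.8 for BUTN, 922 ± 134 for TNPR and 972 ± 152 for TNBU. Relative to TN this is 0.898, 0.891, 1.14 and 1.20 in the 4 SCFA groups, and relative to Ctrl 1.04, 1.03, 1.32 and 1.39. MT2A made up 74.1% ± 0.771 of the sum in Ctrl and 75.9% ± 0.983 in TN, and 64.0% to 65.8% in the SCFA groups. The share of MT1X was 5.91% ± 0.134 in Ctrl and 5.57% ± 0.256 in TN. It was 14.1% ± 0.0778 for PRTN, 12.9% ± 0.311 for BUTN, 12.4% ± 3.01 for TNPR and 11.4% ± 1.75 for TNBU. MT1M fell from 1.30% ± 0.00495 of the sum in TN to between 0.348% and 0.518% in the SCFA groups. Without MT2A, the remaining 6 members summed to 196 ± 3.68 CPM for TN, 262 ± 5.52 for PRTN, 248 ± 14.5 for BUTN, 323 ± 31.4 for TNPR and 332 ± 45.2 for TNBU, or 1.34, 1.27, 1.65 and 1.70 times TN. These sums are descriptions and were not tested.

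**Figure D3:**
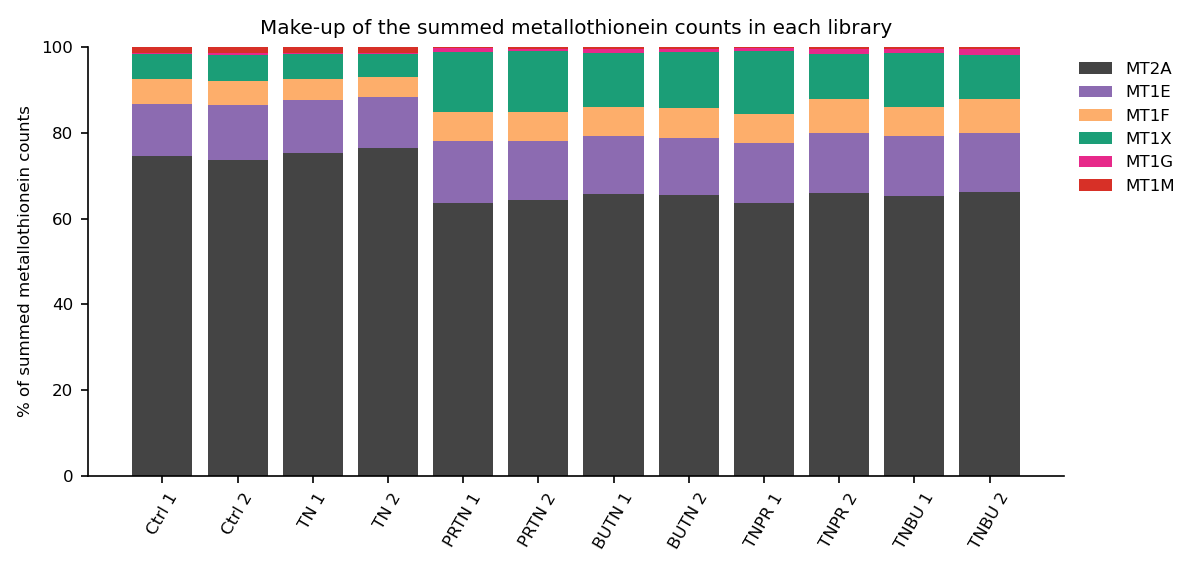
Share of each metallothionein in the summed expected counts of the family, for each of the 12 libraries, as stacked percentages. MT1H is under 0.02% and is not drawn. The MT2A segment is about 74% to 76% in Ctrl and TN on average and 64.0% to 65.8% in the SCFA groups, with a wider MT1X segment above it.

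SCFAs given after TNF-α were compared with the same SCFA given before it. The groups compared also differed in the time since TNF-α, which cannot be told apart from the order of treatment. With all libraries, the members except MT1H had a positive log2 difference, but its size rested largely on the second replicates of TNPR and TNBU. For MT1G the log2 difference was 0.78 (SE 0.34) in TNPR vs PRTN and 1.02 (SE 0.33) in TNBU vs BUTN, for MT1F 0.44 and 0.54, for MT2A 0.35 and 0.42, for MT1E 0.32 and 0.46, for MT1X 0.13 and 0.24, and for MT1M 0.30 and 0.15. None was called, with 4 of 7 members at an unadjusted p under 0.05 in TNPR vs PRTN and 5 of 7 in TNBU vs BUTN, and the lowest adjusted p, 0.0606 in limma, for MT1E in TNBU vs BUTN. Few genes were called in these comparisons at all, 0.0534% higher and 0.107% lower for propionate and 0.0945% and 0.173% for butyrate. The edgeR test also called no member, and DESeq2 called MT1G in TNBU vs BUTN. Leaving out the first replicate of TNBU, 3 members were called (MT1E, MT1F and MT1G). Leaving out the second replicate of the later group, none was called. The difference was then 0.26 in TNPR vs PRTN and 0.56 in TNBU vs BUTN for MT1G, 0.17 and 0.26 for MT1F, 0.17 and 0.25 for MT2A, and 0.18 and 0.32 for MT1E. For MT1M it turned, to -0.13 and -0.066, and for MT1X it was 0.23 in both, against 0.019 in TNPR vs PRTN without the first replicate of TNPR. The test of whether the timing difference itself differed between propionate and butyrate called no member and no other gene in limma, and no member had an unadjusted p under 0.05. For MT1G that difference was -0.24 on the log2 scale (SE 0.48).

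The replicates of TNPR and TNBU moved these members together. The second replicate exceeded the first by 2.11 and 1.86 times for MT1G, 1.86 and 1.35 times for MT1M, 1.46 and 1.48 times for MT1F, 1.27 and 1.27 times for MT2A, and 1.22 and 1.22 times for MT1E. MT1X did not share this, at 0.869 and 1.01 times. In Ctrl, TN, PRTN and BUTN, the ratios of these 6 members lay between 0.858 and 1.17. Across the 12 libraries, which share their 6 treatments, Pearson's r on log2 CPM was 0.962 between MT1F and MT1G, 0.934 between MT1E and MT1F, -0.925 between MT1M and MT1X and -0.062 between MT1X and MT2A.

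MT1A and MT1B, metallothionein genes outside the 7 members, were called higher than TN in all 4 SCFA groups. Of 13 such genes in the table, 8 were tested, and 2, 3, 4 and 3 were called higher in PRTN, BUTN, TNPR and TNBU, beside 23.9%, 23.1%, 24.9% and 25.0% of all genes, with none lower. The 2 of 8 in PRTN are close to the share of all genes. MT1B and MT1L had 0 or 1 count in each Ctrl and TN library and passed the filter only through the SCFA libraries. Such genes could only be called higher. MT1A, a zinc- and cadmium-binding type 1 isoform that lies between MT1M and MT1F, had 20.8 and 17.7 counts in TN and 135 to 194 in the SCFA libraries, with log2 fold changes of 2.59, 2.80, 2.81 and 3.05 (SE 0.33 each). MT1B had 0 counts in Ctrl, 0 and 1 in TN and 24 to 62 in the SCFA libraries, at least 15.5-fold to 32.1-fold higher than Ctrl with the floor at 3 counts over the group. The pseudogenes MT1L (0 or 1 count in Ctrl and TN, 3 to 9.01 in the SCFA libraries) and MT1JP (called only in TNPR against TN) were low throughout. MT3, the brain isoform, and MT4, an isoform of stratified epithelium, had at most 1 count in any library. Including the relatives on chromosome 16 moved the family sum in TNBU from 972 to 980.4 CPM.

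**Figure D4:**
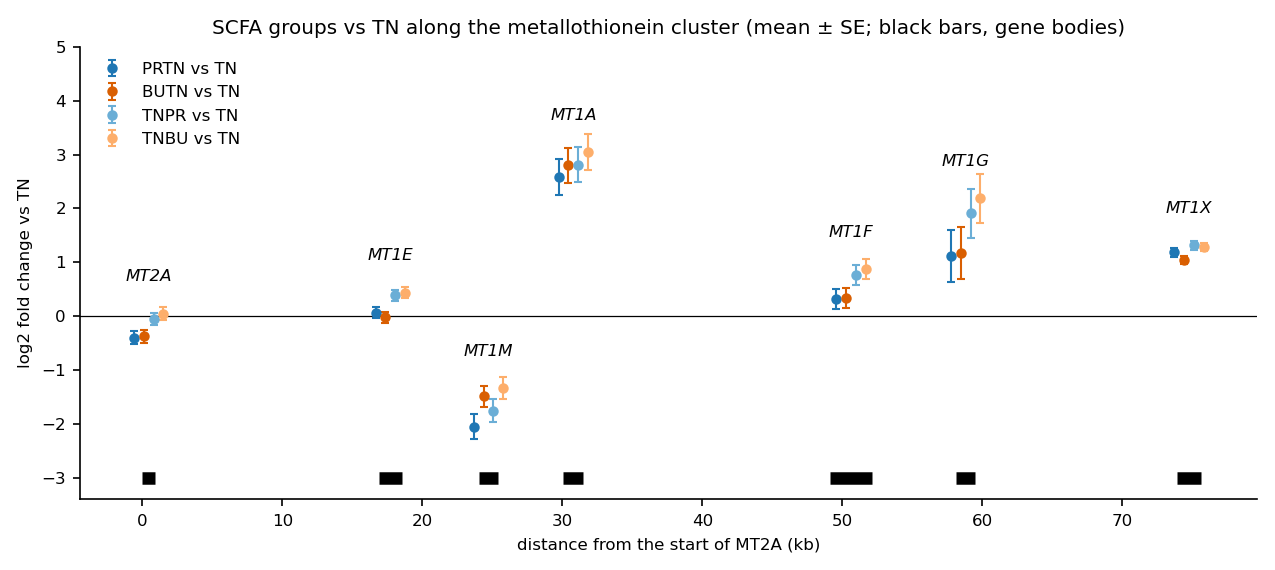
Log2 fold change against TN, with SE, of the metallothioneins with enough counts for a fold, placed by the distance of the gene's middle from the start of MT2A in kb. Black bars are gene bodies and the 4 groups are set side by side for legibility. MT1M stands below 0 in all 4 groups, and MT1A, next to it, stands at 2.59 to 3.05.

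Positions along the cluster did not order the changes. MT1M, at -1.34 to -2.05 on the log2 scale, lies between MT1E at -0.03 to 0.44 and MT1A at 2.59 to 3.05. Around the cluster, 12 protein-coding genes within 500 kb were tested, of which 3, 3, 2 and 3 were called higher and 1 lower in each SCFA group against TN. Among all genes, 23.1% to 25.0% were called higher and 14.8% to 16.9% lower in these comparisons, so the count of higher neighbours is near that share. CETP, called higher in each group, was at 0 CPM in TN and could only be called higher. HERPUD1, an endoplasmic reticulum stress gene, was the gene called lower, with 86.4 ± 8.23 CPM in TN, 32.6 ± 0.154 with propionate first and 29.5 ± 4.21 with butyrate later. GNAO1, a G protein subunit, was higher, with 2.90 ± 0.313, 9.92 ± 0.0515 and 11.6 ± 1.00 CPM in the same groups. BBS2, which overlaps MT4, and NUP93, the nearest tested gene on the other side, were called in none of these comparisons.

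Genes that sense and move zinc were read from the same fit. MTF1, which encodes the zinc-sensing factor of metallothionein promoters, was at 36.9 and 37.3 CPM in TN and at 37.6 to 50.2 CPM in the SCFA libraries. It was not called in any group, with log2 fold changes of 0.42 for PRTN (SE 0.11, adjusted p = 0.00711), 0.27 for BUTN, 0.26 for TNPR and 0.21 for TNBU. SLC30A1, the zinc exporter of the cell surface and another MTF-1 target, had 62.4 and 62.1 CPM in the TN libraries and 98.1 to 111 CPM in the 8 SCFA libraries. It was called higher in all 4 groups, with log2 fold changes of 0.81, 0.74, 0.73 and 0.71 (SE 0.07 each).

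Of 10 zinc exporters of the SLC30 family, 8 were tested and 4 were called higher in each SCFA group, with none lower, where 23.1% to 25.0% of all genes were called higher and 14.8% to 16.9% lower. Besides SLC30A1 these were SLC30A4, from 3.06 and 2.71 CPM in TN to between 6.69 and 8.94 CPM in the SCFA libraries, and SLC30A2 and SLC30A3. SLC30A3, a transporter known from synaptic vesicles, had 0 to 3 counts in Ctrl and TN and 63 to 111 in the SCFA libraries. SLC30A2 had 1 to 5 and 80 to 146. SLC30A3 passed the filter only through the SCFA libraries and could only be called higher. Among the called exporters, only SLC30A1 and SLC30A4 had more than a few counts in TN. The family's median log2 fold change was 0.51 (PRTN), 0.38 (BUTN), 0.44 (TNPR) and 0.35 (TNBU). Of 14 zinc importers of the SLC39 family, 13 were tested. In turn, 2, 2, 2 and 1 were called higher and 4, 3, 3 and 3 lower, against the same 23.1% to 25.0% and 14.8% to 16.9% of all genes. The higher calls were of SLC39A2 and SLC39A5, which passed the filter only through the SCFA libraries and could only be called higher.

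SLC39A14, an importer of zinc, iron and manganese that inflammation induces, was the only importer called in TN vs Ctrl, rising from 231 and 236 to 397 and 414 CPM (log2 0.80, SE 0.07, adjusted p = 4.88e-05). In the SCFA groups it stood at 124 to 173 CPM, with log2 fold changes against TN of -1.40, -1.25, -1.55 and -1.58 (SE 0.07 each). SLC39A10 went from 85.6 and 87.7 CPM in TN to between 32.8 and 44.6 CPM, and SLC39A1 from 274 and 304 to between 148 and 168 CPM, both called lower in all 4 groups. SLC39A2 was at 0 in both TN libraries and had 7 to 22 counts in the SCFA libraries, through which alone it passed the filter. It could thus only be called higher. The same holds for SLC39A5, with 0 or 1 count in each Ctrl and TN library and 2 to 6 in the SCFA libraries.

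**Figure D5:**
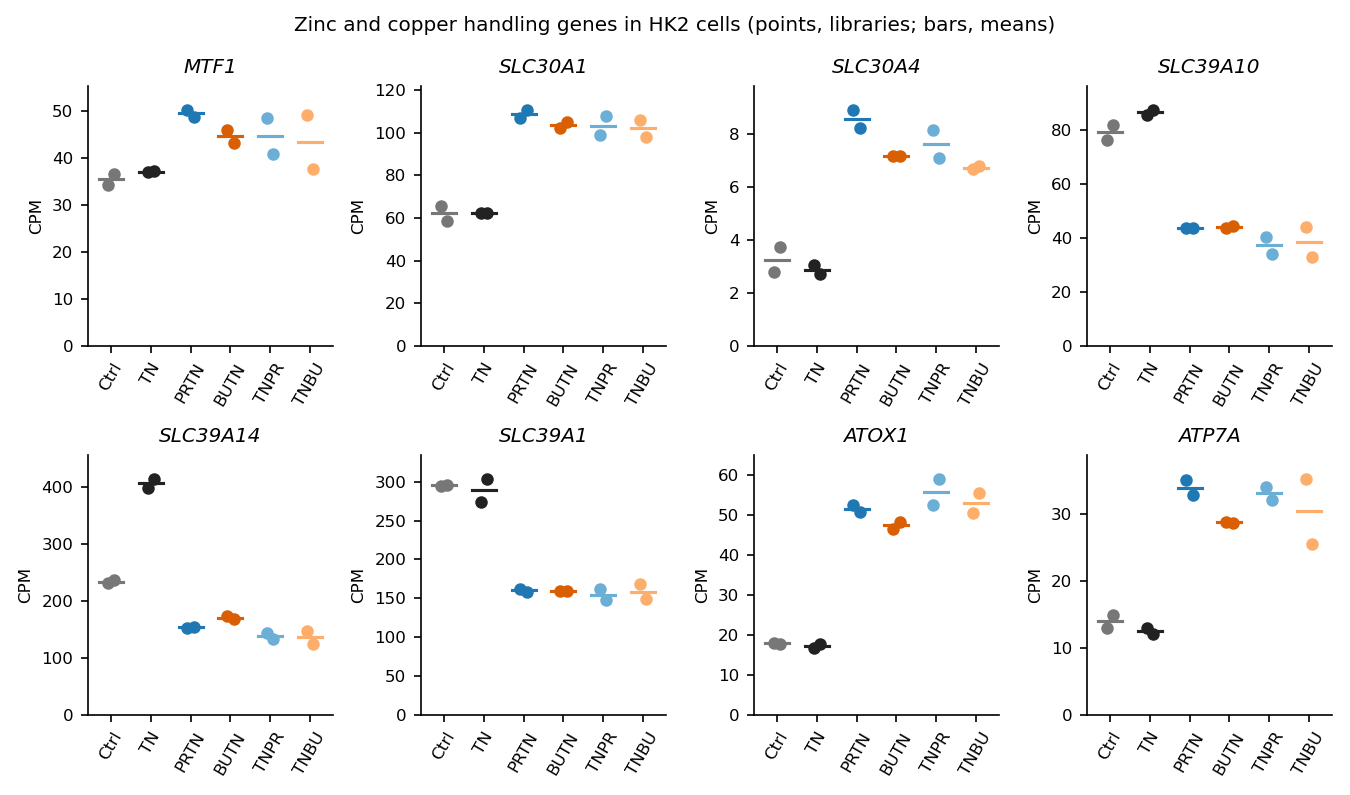
CPM in each library of MTF1, the zinc exporters SLC30A1 and SLC30A4, the zinc importers SLC39A10, SLC39A14 and SLC39A1, and the copper genes ATOX1 and ATP7A. Points are libraries, bars are group means and axes start at 0. SLC39A14 is at 397 and 414 CPM in TN and at 124 to 173 CPM in the SCFA libraries, while SLC30A1 and ATOX1 are higher in all SCFA libraries than in TN.

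Copper handling genes, 12 in number and all tested, had 3, 3, 4 and 4 members called higher and 2 lower in each group, near the 23.1% to 25.0% and 14.8% to 16.9% of all genes. ATOX1, the chaperone that hands copper to the secretory pathway, went from 16.7 and 17.8 CPM in TN to between 46.6 and 59.1 CPM (log2 1.58, 1.46, 1.69 and 1.62, SE 0.09 each). The copper pumps that it serves were higher too. ATP7A went from 13 and 12.1 CPM to between 25.6 and 35.3 CPM, and ATP7B from 3.28 and 3.30 CPM to between 12 and 15.4 CPM. STEAP3, a metalloreductase, was lower in all 4 groups, from 50 and 55.3 CPM to between 21.1 and 30.6 CPM. Copper uptake transporters SLC31A1 and SLC31A2 were called in none of the 4.

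Of 14 genes that sense zinc or are known to act on metallothionein transcription, 4, 4, 3 and 4 were called higher and 5 lower in each SCFA group, beside 23.1% to 25.0% of all genes higher and 14.8% to 16.9% lower. KEAP1, the repressor of the oxidative stress factor NRF2, went from 57.3 and 67.2 CPM in TN to between 19.5 and 28.6 CPM, and CTCF, an architectural DNA-binding protein, from 101.9 and 99.6 to between 43.8 and 64.1 CPM. HDAC3, a histone deacetylase, went from 75.1 and 76.5 to between 124 and 163 CPM, and STAT3, the factor downstream of IL-6, from 98.2 and 104 to between 189 and 220 CPM. NR3C1, the glucocorticoid receptor, was called lower than TN in all 4 groups (log2 -0.62 to -0.67, SE 0.09). Its mean was 48.2 CPM in Ctrl, 60.3 in TN and 37.8 to 39.1 in the SCFA groups, so TN stood above Ctrl.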

How the data were processed

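The deposited values were expected counts per gene, 1 table a library, which the authors made from stranded mRNA libraries with STAR 2.6.1a and RSEM on GRCh38 and GENCODE release 26 (FastQC 0.11.5 for quality). They were not scaled or pooled. Each library's own label gave its group. The members and all gene lists were chosen with earlier results of these data known. Genes were kept where the geometric mean of the count plus 1, less 1, was at least 1. TMM factors (edgeR 4.0.16) and limma-voom (limma 3.58.1, R 4.3.3) gave group means over all 12 libraries, with Benjamini-Hochberg adjustment over 24342 genes. DESeq2 1.42.0 and edgeR's quasi-likelihood test on rounded counts were alternatives. All 7 members, MTF1 and SLC30A1 were named, with at most 4 genes a list, those called in most of 9 comparisons and then by size; SLC31A1, SLC31A2, NR3C1 and the flanking genes described were named after their values were seen. Positions and transcripts came from GENCODE release 44 and promoters from RefSeq. Of the 7 members, 3 matched the promoter table. The 2 replicates a group are called biological, with no word on separate cultures, so p-values measure the spread between these samples, which may be technical.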

Additional observations from a re-analysis of the deposited data

How the results depend on the processing

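MT1X and MT1M kept their calls against TN and Ctrl in all 4 SCFA groups under all alternatives run. Those were edgeR, DESeq2, relative log expression factors, library size alone, no filter (37730 genes), a literal geometric mean (19096 genes), only the groups compared, a fold over 2, the replicate block, and each library left out. Members called higher in PRTN vs TN went from 1 to 2 with edgeR, DESeq2 or no filter, and to 3 with library size alone, only the groups compared or the replicate block. In PRTN vs Ctrl they went to 2 with edgeR, DESeq2, library size alone or no filter, and to 3 with only the groups compared or the replicate block. In BUTN vs TN and BUTN vs Ctrl they were 2 with edgeR, DESeq2, library size alone, the literal mean, only the groups compared or the replicate block. The added calls were MT1G, and in PRTN also MT1H (adjusted p = 0.0259 to 0.0472 in limma where called), which alone was added with no filter and, against Ctrl, with library size alone. The cause was not tested. TNBU vs Ctrl had 2 with a fold over 2, and TNBU vs BUTN had 1 with DESeq2. A fold over 2 also took MT1F out of TNPR vs TN, TNBU vs TN and TNPR vs Ctrl (log2 0.77, 0.87 and 0.70). With library size alone, 4 were called higher in TNBU vs TN and in TNPR vs Ctrl. The counts in TNPR vs TN and TNBU vs TN also moved when a library of that SCFA group was left out. With single libraries left out, the range was 1 to 3 in PRTN vs TN and PRTN vs Ctrl, 1 to 2 in BUTN vs TN and BUTN vs Ctrl, 2 to 5 in TNPR vs Ctrl, 2 to 5 in TNBU vs Ctrl and 0 to 3 in TNBU vs BUTN. Replicate numbers did not pair the libraries (15 pairs, r from -0.0334 to 0.067, none over 0.1), and the block changed no other count of members.

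Small differences turned direction. MT1E in BUTN vs TN was 0.13 (log2) and MT2A in TNPR vs TN 0.12 with library size alone, which moved the median of all genes in these comparisons to 0.23 and 0.29. With single libraries left out, MT2A ranged from -0.23 to 0.080 in TNPR vs TN (above 0 without TNPR replicate 1) and from -0.13 to 0.18 in TNBU vs TN (below 0 without TN replicate 1 or TNBU replicate 2). MT1M ranged from -0.13 to 0.75 in TNPR vs PRTN and from -0.066 to 0.35 in TNBU vs BUTN (below 0 without replicate 2 of TNPR or TNBU). The SE against TN was 0.08 to 0.12 for MT1E, MT1X and MT2A, 0.18 to 0.23 for MT1F and MT1M, and 0.45 to 0.48 for MT1G. MT1H had too few counts for a fold, and its calls came and went with the setting.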

Other observations

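Genes of the glucocorticoid response, read because the medium holds hydrocortisone, were mixed. Of 12 listed, 11 were tested, and 7, 5, 3 and 4 were called higher and 2 lower in PRTN, BUTN, TNPR and TNBU against TN, beside 23.9%, 23.1%, 24.9% and 25.0% of all genes called higher and 14.8% to 16.9% lower. ANGPTL4, an inhibitor of lipoprotein lipase, went from 7.52 and 9.40 CPM in TN to between 22.2 and 38.6 CPM in the SCFA libraries. ERRFI1, a brake on the EGF receptor, went from 144 and 126 to between 312 and 352 CPM, and CDKN1C, a cell cycle inhibitor, from 15.2 and 18.4 to between 7.99 and 9.95 CPM. TAT, a tyrosine-degrading enzyme of liver, was at 0 in Ctrl and TN and had 1 to 6 counts elsewhere. It passed the filter only through the SCFA libraries and, at 0 in TN, had no way to be called lower. TAT is counted among the higher calls in all 4 groups.

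Metal and heat stress genes, 12 in number and all tested, had 4, 2, 3 and 2 called higher and 3, 3, 3 and 2 lower, beside 23.1% to 25.0% and 14.8% to 16.9% of all genes. NQO1, a quinone reductase of the NRF2 programme, fell from 83.9 and 81.1 CPM in TN to between 22.9 and 41.4 CPM, while TXNRD1, thioredoxin reductase, rose from 422 and 412 to between 737 and 891 CPM. HMOX1, which degrades haem and responds to metals, went from 9.72 and 10.1 CPM to between 14.7 and 20.4 CPM, and HSPH1, a chaperone, from 204 and 191 to between 87.9 and 115 CPM.

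The genes whose log2 CPM followed MT2A most closely over the 12 libraries, among 10189 genes with a mean of at least 10 CPM, were RBFA (Pearson's r 0.965), ACTG1 (0.94), NDRG1 (0.902), NT5E (0.889) and PSMG4 (0.888). ACTG1, cytoplasmic actin, had 4012 ± 161 CPM in TN libraries, 3430 ± 14.6 with propionate first and 4226 ± 439 with butyrate later. These are descriptions over libraries that share treatments and the wide replicates of TNPR and TNBU. For MT1H, whose fitted group means had the widest range, counts of 0 to 5.04 were too few for such a ranking.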
